A study of Homo sapiens with 6 samples.

Results

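The genes described here encode the proteins that are known to recognise N6-methyladenosine (m6A) on RNA, called m6A readers. They are the 3 YTHDF genes (YTHDF1, YTHDF2 and YTHDF3), the 2 YTHDC genes (YTHDC1 and YTHDC2), the 3 IGF2BP genes (IGF2BP1, IGF2BP2 and IGF2BP3), and HNRNPA2B1 and HNRNPC. They were chosen by name and not by their values, and all 10 were found among the 60649 gene rows of the count table. All 10 also passed the filter on low counts. RNA sequencing was performed in OVCAR5, an established human epithelial cancer cell line that is widely used as an ovarian cancer model. METTL3-overexpressing cells (3 libraries) had been transduced with lentivirus carrying METTL3, the catalytic subunit of the m6A writer complex, and vector control cells (3 libraries) with lentivirus without an insert. One part of the labels calls the controls parental. Both groups had been selected with puromycin, were grown in the same medium, and carry a stably integrated construct in a single cell line. The labels name no drug treatment, and they do not say whether the 3 libraries of a group came from separate cultures, so the p-values measure only the spread between these libraries, which may be technical.

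Readers decide much of what an m6A mark does to an mRNA. YTHDF proteins are cytoplasmic and are known for bringing marked mRNAs to the CCR4-NOT deadenylase and for effects on translation, YTHDC1 is nuclear and acts in splicing and export, and YTHDC2 is an RNA helicase best known from meiosis. IGF2BP proteins are oncofetal RNA-binding proteins that are reported to protect marked mRNAs from decay. HNRNPA2B1 and HNRNPC are abundant nuclear RNA-binding proteins, and HNRNPC binds sites that m6A makes accessible by loosening RNA structure.

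The data set as a whole bears on these genes in the following ways. Total counts ranged from 96633925 to 125463386 per library. Replicate 1 stood apart in both groups. A chi-square comparison of counts gave 12.5 and 12.9 per degree of freedom for replicate 2 against 3 of a group, and 114 to 248 for replicate 1 against either of them. For that reason, all comparisons are given over the 6 libraries and over replicates 2 and 3. Levels are given as CPM, the counts of a gene divided by the TMM-scaled library total, and METTL3 mRNA reached 152, 165.5 and 175 CPM in the 3 METTL3-overexpressing libraries (in the order of replicates 1, 2 and 3, as below). The vector controls had 80.6, 68.6 and 71.6 CPM of METTL3. All METTL3-overexpressing libraries were thus above all vector controls. The log2 fold change was 1.16 over 6 libraries (edgeR's quasi-likelihood test, Benjamini-Hochberg adjusted p = 0.072) and 1.28 over replicates 2 and 3 (edgeR adjusted p = 1.59e-08). All 6 epithelial markers were present, as were PAX8 and MUC16 of 4 ovarian lineage markers, whereas WT1 and SOX17 stayed under 1 CPM. Of 5 gastrointestinal lineage markers 3 (CDX2, CDH17 and VIL1) reached 1 CPM, LGALS4 stayed under it and CDX1 was at 0. The ovarian markers summed to 12.3 to 61.2 CPM per library with METTL3 and 8.36 to 13.8 with the vector. The gastrointestinal markers summed to 9.91 to 17.6 CPM with METTL3 and 11.8 to 13.1 with the vector. Of 8 leukocyte, endothelial and fibroblast markers, 1 (COL1A1) reached 1 CPM. Counts of bulk RNA cannot tell fewer expressing cells from less RNA per cell.

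Over replicates 2 and 3, IGF2BP2 and IGF2BP1 were lower with METTL3 overexpression, to 0.845 and 0.786 of the vector control level. The other 8 readers did not pass the test there, where 15.2% of all tested genes passed and 8.59% passed as lower. Among alternatives, YTHDF3 passed with the replicate number as a block. YTHDC2 passed with GC content and length trends removed, and YTHDF1 with both. Over all 6 libraries none of the 10 passed, where 0% of all tested genes did. The 4 readers whose levels varied most between libraries were IGF2BP2, IGF2BP1, HNRNPC and HNRNPA2B1. Of these, IGF2BP2 and IGF2BP1 were lower in replicate 1 than in replicates 2 and 3 of the same group. HNRNPC and HNRNPA2B1 had both their lowest and their highest library in replicate 1. The lowest library was also one of replicate 1 for YTHDF1, YTHDF3, YTHDC1 and YTHDC2.

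The sequences upstream of 3 of these genes are shown, chosen among those in the RefSeq promoter table, because their levels varied between libraries (IGF2BP2 and HNRNPC) or stayed steady beside a paralog that did not (IGF2BP3). They are from RefSeq (GRCh38.p14), written 5′ to 3′ on the strand of the gene, and end at the annotated start. The exception is HNRNPC, for which a stretch of 198 bases that ends 52 bases before the RefSeq start is given, to stay outside annotated exons. Of the 10 readers 8 were matched in the RefSeq promoter table, and YTHDF3 and IGF2BP1 were not. Capitals mark matches, on either strand, to the GC box (GGGCGG or CCGCCC), the CCAAT box (CCAAT or ATTGG) and the E-box CACGTG. Of 35116 promoters in that table, 42.6% hold a GC box, 32% a CCAAT box and 6.34% this E-box in the 250 bases before the start.
IGF2BP2 (chr3:185825043-185825292, reverse strand): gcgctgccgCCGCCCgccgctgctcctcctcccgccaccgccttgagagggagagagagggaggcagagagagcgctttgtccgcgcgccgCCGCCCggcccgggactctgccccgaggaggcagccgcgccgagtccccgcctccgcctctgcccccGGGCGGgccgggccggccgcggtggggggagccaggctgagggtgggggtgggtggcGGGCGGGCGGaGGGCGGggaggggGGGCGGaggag
IGF2BP3 (chr7:23470492-23470741, reverse strand): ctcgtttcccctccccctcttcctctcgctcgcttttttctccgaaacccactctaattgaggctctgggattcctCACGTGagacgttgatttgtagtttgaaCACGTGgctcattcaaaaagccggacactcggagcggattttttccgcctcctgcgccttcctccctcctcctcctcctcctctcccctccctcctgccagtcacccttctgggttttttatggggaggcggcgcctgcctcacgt
HNRNPC (chr14:21269495-21269692, reverse strand): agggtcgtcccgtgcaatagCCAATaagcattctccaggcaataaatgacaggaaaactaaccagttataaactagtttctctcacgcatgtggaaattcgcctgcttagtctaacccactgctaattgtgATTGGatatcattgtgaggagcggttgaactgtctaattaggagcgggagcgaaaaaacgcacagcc
The IGF2BP2 window held 7 GC boxes, of which 1 pair overlaps, and 81.6% of its bases were G or C. The IGF2BP3 window held 0 GC boxes and 2 E-boxes, with a G and C content of 56.8%. The HNRNPC stretch held 2 CCAAT boxes, and the full 250 bases before the HNRNPC start hold 3 CCAAT boxes and 1 GC box. RefSeq gives IGF2BP2 another start further into the gene, and the 250 bases before it (chr3:185821143-185821392, not printed) hold 0 GC boxes and 1 CCAAT box, with a G and C content of 32.8%. Gene counts do not show which start was used. A match is a match of letters, and binding was not measured.

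The readers covered a wide range of levels. To compare genes, CPM were divided by the length of all exons of the gene in kb. On this scale the means and SD over the 6 libraries were 145 ± 23.7 CPM per kb for HNRNPA2B1 and 119 ± 24.3 for HNRNPC, which were the most abundant readers. IGF2BP2 followed at 51.9 ± 14.7 CPM per kb, ahead of YTHDF1 at 35.8 ± 3.88, YTHDF3 at 27.1 ± 1.80 and YTHDF2 at 23.9 ± 0.501. IGF2BP3 (15.2 ± 0.564), YTHDC1 (13.2 ± 0.956) and YTHDC2 (5.78 ± 0.294) were lower, and IGF2BP1 was lowest at 1.11 ± 0.240 CPM per kb. The libraries of HNRNPC and IGF2BP2, of YTHDF2 and IGF2BP3, of YTHDC1 and YTHDC2, and of YTHDC2 and IGF2BP1 did not overlap, so these steps in the order were larger than the spread. The ranges of the other neighbours overlapped. Within a library, however, HNRNPA2B1 was above HNRNPC, YTHDF1 above YTHDF3 and IGF2BP3 above YTHDC1 in 6 of 6, and IGF2BP2 was above YTHDF1 and YTHDF3 above YTHDF2 in 5 of 6. The order of the means was the same with the length of the longest transcript and with that of the MANE Select transcript, but the sizes of the steps were not. With the MANE Select length the mean of HNRNPA2B1 was 505 CPM per kb and that of IGF2BP3 30.4. The step from YTHDF2 to IGF2BP3 then shrank to 32.5 against 30.4 CPM per kb and the ranges overlapped, as they did with the longest transcript (31.5 against 30.4).

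**Figure D1:**
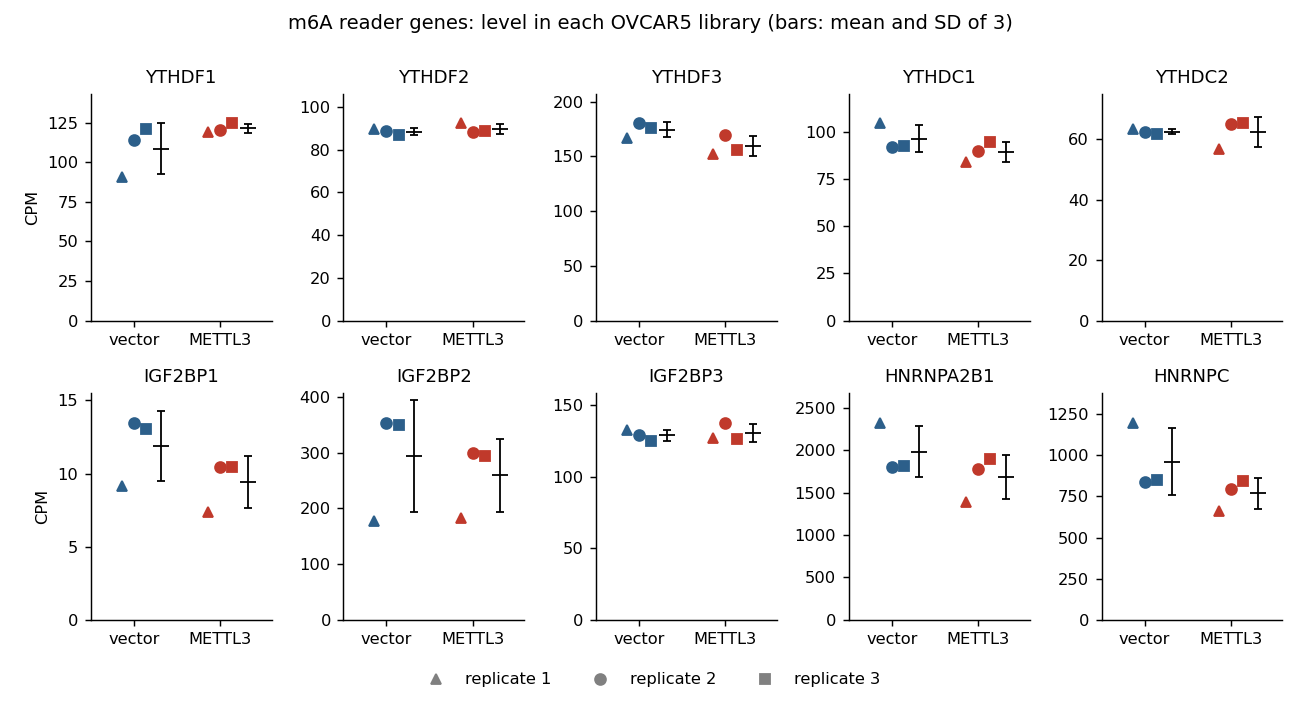
Level of each m6A reader gene (y axis, CPM, from 0) in the vector control (blue) and METTL3-overexpressing (red) libraries, with the replicate number as the symbol and the mean and SD of 3 libraries as black bars. Replicate 1 (triangles) lies apart for IGF2BP2, IGF2BP1, HNRNPA2B1 and HNRNPC, whereas YTHDF2 stays between 86.8 and 92.3 CPM in all 6 libraries.

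Whether METTL3 overexpression changed the readers was first asked over all 6 libraries. None of the 10 passed an adjusted p of 0.05 in edgeR, where the percentage of all 22038 tested genes called was 0 as well. An unadjusted p under 0.05 was reached by 0 of the 10 readers, against 8.3% of all genes, and 0 of the 10 had CPM ranges that were separate between the groups, against 17.4% of all genes. DESeq2, which called 226 genes on these libraries, called 0 readers. The readers' median log2 fold change was -0.12 with 3 higher and 7 lower, beside -0.02 for all tested genes. Their median absolute log2 change was 0.15, beside 0.20 for all tested genes.

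Over replicates 2 and 3 the same test called 2 of the 10 readers, both lower, where 15.2% of 22046 tested genes were called and 8.59% were called as lower. The median log2 fold change of the readers was 0.0047 with 5 higher and 5 lower, beside -0.0033 for all genes. The readers' median absolute change was 0.055, beside 0.17 for all genes. With the replicate number as a block, 3 readers were called, against 24.7% of all genes. The comparisons over 6 libraries and over replicates 2 and 3 share replicates 2 and 3 of both groups and are not independent.

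**Figure D2:**
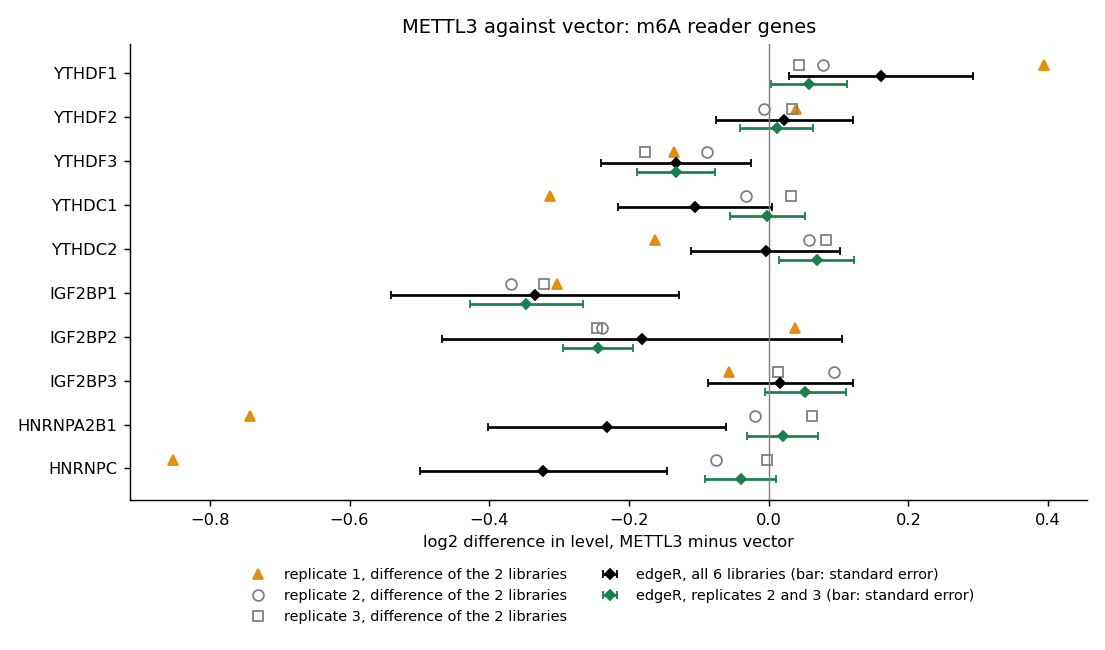
Difference in level between METTL3-overexpressing and vector control libraries (x axis, log2) for each reader (y axis), as the difference of the 2 libraries of each replicate number (triangle, circle and square) and as the edgeR estimate over all 6 libraries (black) or over replicates 2 and 3 (green) with its standard error. The replicate 1 differences of HNRNPC (-0.85) and HNRNPA2B1 (-0.74) lie far to the left of those of replicates 2 and 3, and all 3 IGF2BP1 differences lie between -0.37 and -0.30.

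Among the cytoplasmic YTHDF readers, no gene passed in the 6 libraries or, without the block, in replicates 2 and 3. YTHDF1 (chr20:63195429-63216139), which is best known for promoting translation of marked mRNAs, was at 119, 121 and 124.5 CPM with METTL3. In the vector controls YTHDF1 was at 90.4, 114 and 121 CPM. Vector control replicate 1 was thus the low library, and the groups overlapped through vector control replicate 3. The log2 fold change of YTHDF1 was 0.16 with a standard error (SE) of 0.131 over 6 libraries (edgeR adjusted p = 0.728), and 0.06 (SE 0.0545) over replicates 2 and 3 (edgeR adjusted p = 0.559).

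YTHDF2 (chr1:28736621-28769775), the reader most closely tied to decay of marked mRNAs, was the steadiest of the 10. It was at 92.3, 88.2 and 88.8 CPM with METTL3 and at 89.8, 88.6 and 86.8 CPM with the vector. These values overlapped, and the highest library was only 1.06 times the lowest. YTHDF2 had a log2 fold change of 0.02 (SE 0.0981) over 6 libraries (edgeR adjusted p = 0.96) and 0.01 (SE 0.0522) over replicates 2 and 3 (edgeR adjusted p = 0.925). Of its exon bases, 24.7% lie opposite a long noncoding RNA gene. The strand setting of the counting is not given in the sources used here, so reads of the 2 genes cannot be told apart.

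YTHDF3, which acts with its paralogs in translation and decay, was at 152, 169.5 and 156 CPM with METTL3 and at 167, 180.2 and 176 CPM with the vector. It was lower with METTL3 within every replicate number, by log2 differences of -0.14, -0.09 and -0.18, while the ranges of the groups overlapped because METTL3-overexpressing replicate 2 was above vector control replicate 1. The log2 fold change of YTHDF3 was -0.13 (SE 0.107) over 6 libraries (edgeR adjusted p = 0.724) and -0.13 (SE 0.0559) over replicates 2 and 3 (edgeR adjusted p = 0.137). With the replicate block over replicates 2 and 3 it was -0.13 and passed (edgeR adjusted p = 0.00708). Over the 13 alternatives to that comparison, the adjusted p of YTHDF3 ranged from 0.00708 to 0.661, and 2 of them, both with the block, called it.

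The paralog balance was measured as the log2 ratio of counts per kb in the same library, which needs no scaling between libraries. The ratio of YTHDF3 to YTHDF1 was -0.59, -0.45 and -0.62 with METTL3 and -0.06, -0.29 and -0.40 with the vector. All METTL3-overexpressing libraries were below all vector controls, with a mean difference of -0.31 (exact permutation test, two-sided, p = 0.1, 0.45 after adjustment over 6 ratios). With 3 libraries against 3 no p under 0.1 is possible. In replicates 2 and 3 the difference was -0.19. Accordingly, YTHDF3 supplied 28.5% to 31.0% of the counts per kb of the 3 YTHDF genes with METTL3 and 31.9% to 34.1% with the vector, and YTHDF1 was the largest share in all 6 libraries, at 35.5% to 44.2%, when all exons gave the length. With the longest transcript, YTHDF1 was the smallest share in vector control replicate 1 (30.65%, beside 34.5% for YTHDF2 and 34.9% for YTHDF3). The ratio of YTHDF2 to YTHDF1 differed by -0.15 between the groups (exact permutation test, two-sided, p = 0.5, 0.6 adjusted), and the groups overlapped. That difference was -0.01 without vector control replicate 1 and -0.25 without vector control replicate 3.

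The YTHDC readers did not pass in either comparison. YTHDC1 (chr4:68310387-68350090), the nuclear reader, was at 84.0, 89.6 and 94.5 CPM with METTL3 and at 104, 91.7 and 92.5 CPM with the vector. Replicate 1 held both the lowest and the highest library, and the other 4 lay between 89.6 and 94.5 CPM. For YTHDC1 the log2 fold change was -0.11 (SE 0.111) over 6 libraries (edgeR adjusted p = 0.787) and -0.0022 (SE 0.0538) over replicates 2 and 3 (edgeR adjusted p = 0.987).

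YTHDC2 (chr5:113513694-113595285), the helicase, was at 56.7, 65.15 and 65.3 CPM with METTL3 and at 63.4, 62.6 and 61.7 CPM with the vector. METTL3-overexpressing replicate 1 was below all vector controls, and replicates 2 and 3 were above them. YTHDC2 had a log2 fold change of -0.0045 (SE 0.107) over 6 libraries (edgeR adjusted p = 0.994) and 0.07 (SE 0.0539) over replicates 2 and 3 (edgeR adjusted p = 0.468). After removal of the GC and length trends of each library, the value over replicates 2 and 3 was 0.14 (edgeR adjusted p = 0.0345), and with the block in the same fit it was 0.14 (edgeR adjusted p = 0.00361). YTHDC1 made up 67.9% to 71.7% of the counts per kb of this pair in the 6 libraries, and the log2 ratio of YTHDC1 to YTHDC2 differed by -0.10 between the groups (exact permutation test, two-sided, p = 0.2, 0.45 adjusted).

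The IGF2BP genes held the readers that were lower with METTL3 over replicates 2 and 3. IGF2BP2 (chr3:185643130-185825042), whose upstream bases are printed above, was at 300.1 and 294 CPM with METTL3 in replicates 2 and 3, whereas the vector controls of those numbers had 354 and 349 CPM. In replicate 1 the METTL3-overexpressing library had 183 CPM and the vector control 178 CPM. The libraries thus fell into low replicate 1 and high replicates 2 and 3 in both groups, and within replicates 2 and 3 both METTL3-overexpressing libraries were below both controls. The log2 fold change of IGF2BP2 over replicates 2 and 3 was -0.24 (SE 0.0501, edgeR adjusted p = 0.00393). Its values under the 13 alternatives were -0.25 to -0.21, and DESeq2 called it too (adjusted p = 0.000127). The alternatives reuse these libraries, which were set apart from replicate 1 because they were alike, so they are not independent support. Over 6 libraries the log2 fold change of IGF2BP2 was -0.18 (SE 0.286, edgeR adjusted p = 0.862).

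IGF2BP1 (chr17:48997385-49056145), usually silent in adult tissue, was lower with METTL3 in each replicate number. It was at 7.40, 10.45 and 10.45 CPM with METTL3 and at 9.13, 13.5 and 13.1 CPM with the vector. Vector control replicate 1 was below METTL3-overexpressing replicates 2 and 3, so the ranges of the groups overlapped. Within replicates 1, 2 and 3 the log2 differences of IGF2BP1 were -0.30, -0.37 and -0.32. Over replicates 2 and 3 the log2 fold change was -0.35 (SE 0.0804, edgeR adjusted p = 0.00873). Under the 13 alternatives it was -0.37 to -0.32, and DESeq2 called it too (adjusted p = 0.0107). As for IGF2BP2, the alternatives reuse the same libraries and are not independent support. Over 6 libraries the log2 fold change of IGF2BP1 was -0.33 (SE 0.206, edgeR adjusted p = 0.656), and from -0.17 without METTL3-overexpressing replicate 1 to -0.49 without vector control replicate 1.

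IGF2BP3 (chr7:23310209-23470491) did not share this pattern and was at 127, 138 and 126.3 CPM with METTL3 and at 133, 129.5 and 125 CPM with the vector. These values overlapped, and replicate 1 did not stand apart. Its log2 fold change was 0.02 (SE 0.103) over 6 libraries (edgeR adjusted p = 0.973) and 0.05 (SE 0.0574) over replicates 2 and 3 (edgeR adjusted p = 0.626). Of the IGF2BP3 exon bases 17.8% lie opposite MALSU1, with the same limit on strand as for YTHDF2.

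Within the IGF2BP family, the shares of IGF2BP2 and IGF2BP3 separated replicate 1 from the other replicates in both groups. IGF2BP2 held 68.6%, 76.5% and 77.7% of the family's counts per kb with METTL3, against 66.9%, 80.0% and 80.3% with the vector. IGF2BP3 held 29.9%, 22.0% and 20.8% with METTL3 and 31.1%, 18.3% and 18.0% with the vector. IGF2BP1 held 1.54%, 1.48% and 1.53% with METTL3 and 1.90%, 1.69% and 1.66% with the vector, so its share was lower in all METTL3-overexpressing libraries than in all vector controls, also with the longest transcript (at most 1.20% against at least 1.32%). The shares were not tested, and no share of this kind is at hand for all genes. On the unlike measure of CPM, the groups overlapped for IGF2BP1, while 17.4% of all tested genes had separate ranges. The log2 ratio of IGF2BP2 to IGF2BP3 differed by -0.17 between the groups over 6 libraries (exact permutation test, two-sided, p = 0.6, 0.6 adjusted) and by -0.30 in replicates 2 and 3. That of IGF2BP1 to IGF2BP3 differed by -0.35 (exact permutation test, two-sided, p = 0.3, 0.45 adjusted) and by -0.40 in replicates 2 and 3. The shares depend on the length used, since IGF2BP2's mean share in the vector controls was 75.8% with all exons and 67.1% with the longest transcript.

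**Figure D3:**
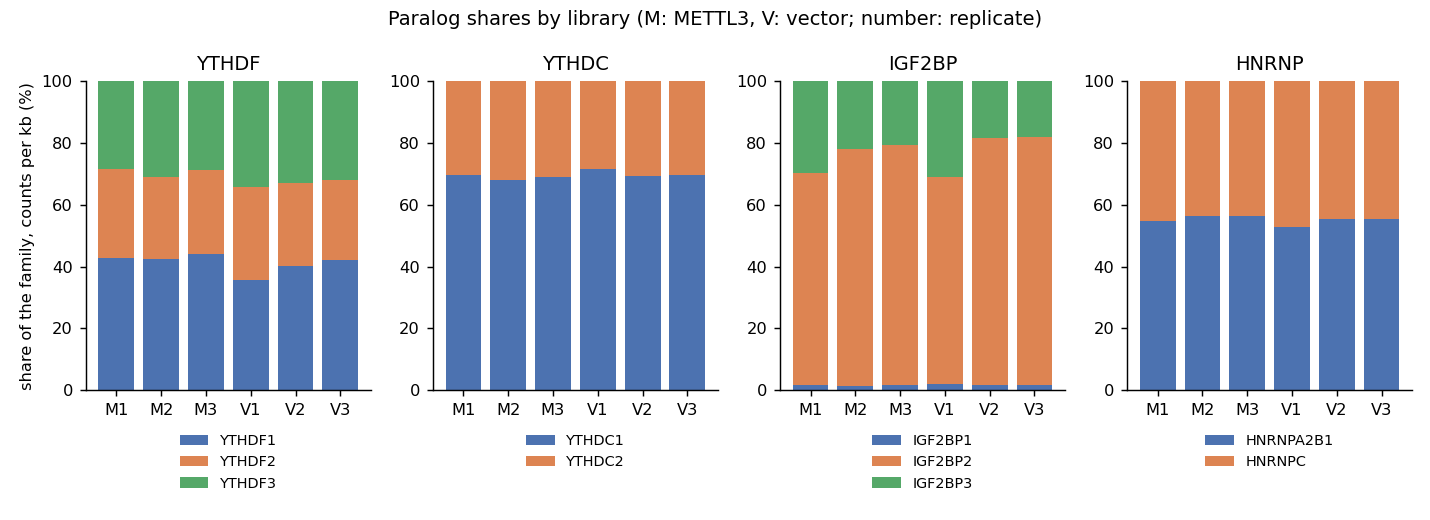
Share of each paralog in the counts per kb of its family (y axis, percent, 0 to 100) in the 6 libraries (x axis, M for METTL3-overexpressing and V for vector control, with the replicate number). The IGF2BP2 share is 68.6% and 66.9% in the replicate 1 libraries and 76.5% to 80.3% in the others, while the share of YTHDC1 stays between 67.9% and 71.7% and that of HNRNPA2B1 between 52.9% and 56.4%.

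HNRNPA2B1 (chr7:26171151-26201529), the most abundant reader, was at 1390, 1773 and 1893 CPM with METTL3 and at 2326, 1798 and 1813 CPM with the vector. The METTL3-overexpressing library of replicate 1 was the lowest of the 6 and the vector control of replicate 1 the highest, whereas the groups overlapped in replicates 2 and 3. For HNRNPA2B1 the log2 fold change was -0.23 (SE 0.17) over 6 libraries (edgeR adjusted p = 0.697) and 0.02 (SE 0.0511) over replicates 2 and 3 (edgeR adjusted p = 0.857).

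HNRNPC (chr14:21209136-21269494) had the same order of libraries in replicate 1. It was at 664, 797 and 846 CPM with METTL3 and at 1199, 839 and 848 CPM with the vector. Here too the lowest and the highest value were both in replicate 1. HNRNPC had a log2 fold change of -0.32 (SE 0.177) over 6 libraries (edgeR adjusted p = 0.641) and -0.04 (SE 0.0513) over replicates 2 and 3 (edgeR adjusted p = 0.685). The processed pseudogene HNRNPCP2 held between 2280 and 3932 counts per library, 3.19% of the HNRNPC counts in all, and how reads of both were shared out is not given in the sources used here. The log2 ratio of HNRNPA2B1 to HNRNPC differed by 0.08 between the groups (exact permutation test, two-sided, p = 0.3, 0.45 adjusted), and HNRNPA2B1 held 52.9% to 56.4% of the counts per kb of the pair.

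CBX3, a heterochromatin protein gene that lies head to head with HNRNPA2B1, overlaps 2.92% of its exon bases and NFE2L3 another 9.57%, each on the opposite strand. CBX3 was at 349, 478 and 525 CPM with METTL3 and at 629, 434 and 469.6 CPM in the vector controls. Its lowest and highest libraries were those of HNRNPA2B1. They were also those of HNRNPC and YTHDC1, whose exons overlap no other gene. NFE2L3 held 33466, 48575 and 37081 raw counts with METTL3 and 31470, 48486 and 44644 with the vector, not scaled by library total. Vector control replicate 1, the highest library of HNRNPA2B1, was not the highest of NFE2L3. How far shared reads enter the HNRNPA2B1 value was not tested.

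Replicate 1 was then compared with replicates 2 and 3, with the group as a term in the model. Of the 10 readers, 2 were called, both lower in replicate 1, where 9.06% of all genes were called and 4.81% were called as lower. IGF2BP2 in replicate 1 was 0.559 of its level in replicates 2 and 3 (log2 -0.84, SE 0.106, edgeR adjusted p = 0.00698), and IGF2BP1 was 0.698 of it (log2 -0.52, SE 0.101, edgeR adjusted p = 0.0247). The 8 other readers did not pass.

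The METTL3 effect in replicate 1 differed from that in replicates 2 and 3 for 5 of the 10 readers, against 30.2% of all genes. This test takes its spread from replicates 2 and 3 only, since replicate 1 has 1 library per group. The largest differences were those of HNRNPC (log2 -0.81, SE 0.0869, edgeR adjusted p = 4.62e-05) and HNRNPA2B1 (log2 -0.76, SE 0.0864, edgeR adjusted p = 5.99e-05). CBX3 differed by -0.999 on the same scale (edgeR adjusted p = 3.71e-05). For YTHDF1 the METTL3 effect was higher in replicate 1, by 0.33, and so it was for IGF2BP2, by 0.28, whereas for YTHDC1 it was lower, by -0.31 (edgeR adjusted p = 0.015, 0.0238 and 0.0205). Without a filter on low counts YTHDC1 was no longer called (-0.27, edgeR adjusted p = 0.0629), which left 4 readers. The labels give no batch or date for these libraries.

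**Figure D4:**
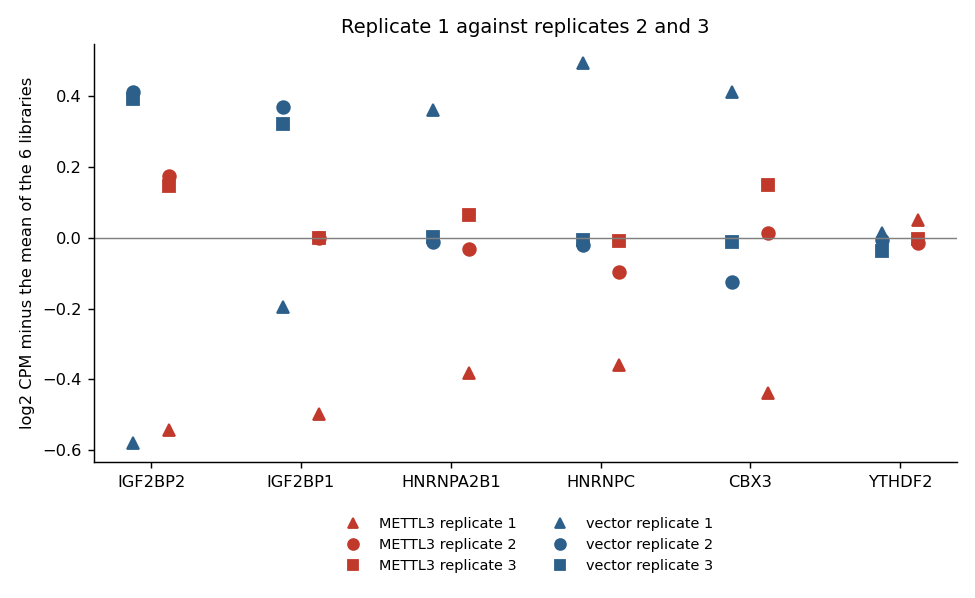
Level of 5 readers and of CBX3 as log2 CPM minus the mean of the 6 libraries (y axis), with vector controls in blue and METTL3-overexpressing libraries in red, and the replicate number as the symbol. Both replicate 1 libraries (triangles) are low for IGF2BP2, they lie on opposite sides for HNRNPA2B1, HNRNPC and CBX3, and YTHDF2 is given as a steady reader.

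The genes around the readers in the m6A pathway were described by 4 lists that hold 40 genes besides METTL3, all of them tested. Over 6 libraries 0 of the 40 passed in edgeR, where 0% of all genes did, and 0 in DESeq2, where 0.524% did. An unadjusted p under 0.05 in edgeR was reached by 1 writer and 1 reader effector, where 8.3% of all genes reached it. Over replicates 2 and 3, 1 of 7 m6A writers rose, 1 fell and 5 did not pass, so that 2 of the 40 genes passed where 15.2% of all genes did. RBM15, which brings the writer complex to its RNAs, was at 24.8, 23.6 and 23.75 CPM with METTL3 and at 20.9, 19.9 and 20.6 CPM with the vector. All METTL3-overexpressing libraries were higher, with a log2 fold change of 0.22 over replicates 2 and 3 (edgeR adjusted p = 0.0352), though the call was lost without METTL3-overexpressing replicate 2 (adjusted p = 0.0813), METTL3-overexpressing replicate 3 (0.102) or vector control replicate 2 (0.125).

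ZC3H13, a scaffold of the writer complex, was at 105.5, 119.7 and 118 CPM with METTL3 and at 157, 135 and 142 CPM with the vector. All METTL3-overexpressing libraries were lower, with a log2 fold change of -0.22 over replicates 2 and 3 (edgeR adjusted p = 0.0121), a call lost without METTL3-overexpressing replicate 3 (adjusted p = 0.0501) or vector control replicate 3 (0.0683). Over 6 libraries the values were 0.23 for RBM15 (edgeR adjusted p = 0.615) and -0.34 for ZC3H13 (edgeR adjusted p = 0.546). CPM ranges that were separate between the groups, as for RBM15 and ZC3H13, were found for 17.4% of all tested genes.

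Of the m6A erasers, the demethylases FTO and ALKBH5, 0 of 2 passed over replicates 2 and 3, with log2 fold changes of -0.04 (edgeR adjusted p = 0.757) and -0.03 (edgeR adjusted p = 0.78). Of 10 other reported readers 0 passed there, and their median log2 fold change was -0.02, beside -0.0033 for all genes. The most abundant of them, the stress granule protein gene G3BP1 and the translation initiation factor gene EIF3A, had log2 fold changes of 0.0011 and -0.01. Of 21 reader effectors, which include the CCR4-NOT subunits, 0 passed, with a median of 0.04. The most abundant were PABPC1, a poly(A)-binding protein gene (-0.07), and SRSF3, a splicing factor gene that works with YTHDC1 (-0.03). At an unadjusted p under 0.05 these 4 lists held 2 writers, 0 erasers, 2 other readers and 1 effector in replicates 2 and 3, where 27.1% of all genes reached it.

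IGF2BP2 varied most between libraries of the 10 readers, with an SD of log2 CPM of 0.45. Among 10027 genes with a mean of at least 10 CPM, the 3 whose log2 CPM followed it most closely over the 6 libraries were TNFRSF1B, a TNF receptor gene (Pearson's r = 0.9991), LRCH3 (0.9986) and RNF19B (0.9985). The gap between replicate 1 and the other libraries sets most of these values, and the 6 libraries share their scaling, so they describe likeness only. TNFRSF1B, for example, was at 33.8 and 33.2 CPM in the replicate 1 libraries and between 41.5 and 45.1 CPM in the others.

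The reader mRNAs themselves hold DRACH motifs, the sequence pattern in which m6A is placed, at 17.05 per kb in IGF2BP1 to 21.8 per kb in IGF2BP3 of the MANE Select transcripts. The median over 19061 such transcripts was 19.0 per kb with quartiles of 16.45 and 21.3. The density of IGF2BP2 was 21.5 per kb, near the upper end of the readers' range. Of the readers that were lower over replicates 2 and 3, IGF2BP1 thus had the lowest density and IGF2BP2 one of the higher densities. Methylation of these transcripts was not measured here.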

How the data were processed

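Poly(A) RNA of 3 METTL3-overexpressing and 3 vector control OVCAR5 libraries was sequenced. The authors aligned the reads to hg38 and deposited raw counts per gene, whole numbers without normalization. The submitters' processing notes name fastp, HISAT2, featureCounts and Subread, and versions, annotation release and strand setting are not given in the sources used here. Labels and methods disagree on the library kit (stranded TruSeq or NEBNext) and on whether reads were paired. Between 67.6% and 70.5% of counts from 1 to 20 were even, so counts divided by 2 were an alternative. Total counts were 96633925 to 125463386 per library.

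Gene identifiers were named from GENCODE release 44, which left 186 of 60649 rows unnamed. Genes kept by filterByExpr (edgeR 4.0.16, R 4.3.3) were scaled by TMM and fitted with robust glmQLFit, and p-values of glmQLFTest were adjusted by Benjamini-Hochberg over all genes tested at a threshold of 0.05, over all 6 libraries and over replicates 2 and 3. A standard error is the absolute log2 change divided by the root of its F statistic. DESeq2 1.42.0 was an alternative, since the methods name it, as were other scalings and filters, the replicate block, removal of GC content and length trends (splines with 5 degrees of freedom), an adjusted p under 0.01 and each library left out in turn. Lengths of MANE Select transcripts were added as an alternative after the values were seen. Functions were tested on simulated data. Paralog ratios were compared by exact permutation tests.

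Deviations of the libraries from their group mean correlated between the groups at 0.334, 0.12 and 0.175 for replicates 1, 2 and 3. Each was over the minimum of 0.1. The main fits of METTL3 against vector nevertheless held the group only. Replicate numbers served as pairs only in the replicate block alternatives and in the differences within a replicate number. Pairing by number rests on the values, since the labels name no pairs. Replicates 2 and 3 of different numbers also correlated, at 0.133 and 0.205, so the values do not settle which of these libraries belong together.

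The readers, gene lists, marker lists and the split into replicates 2 and 3 were chosen with earlier results of these data known. Named genes are the 10 readers, METTL3, up to 4 genes per list that passed in replicates 2 and 3 or otherwise the 2 most abundant, and the 3 genes most like the most variable reader. CBX3, HNRNPCP2 and IGF2BP2-AS1 were named after their values were seen.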

Additional observations from a re-analysis of the deposited data

Results flagged for a closer look

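The METTL3 effect differed between replicate 1 and replicates 2 and 3 for 5 readers, by a test of the difference itself in edgeR, and for 4 without a filter on low counts, where YTHDC1 did not pass (edgeR adjusted p = 0.0629). The difference, as the log2 METTL3 effect in replicate 1 minus that in replicates 2 and 3, was -0.813 for HNRNPC and -0.764 for HNRNPA2B1, which were lower with METTL3 in replicate 1 and between -0.08 and 0.06 in the other pairs. It was 0.334 for YTHDF1 and -0.313 for YTHDC1, both of which differed little between the groups in replicates 2 and 3. For IGF2BP2 it was 0.28, and the effect in replicate 1 was 0.04 against -0.24 and -0.25 in replicates 2 and 3. Replicate 1 gives 1 library per group, so its own spread is not in these tests, and 30.2% of all genes passed the same test.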

How the results depend on the processing

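Of 543 values under an alternative, 457 were counted as unchanged. For this a single gene had to keep its direction and side of the threshold, and a share to move by less than the spread. A ratio had only to keep its sign, which the replicate block could not change. A count of calls could change a little, so that 2 and 3 called readers counted as the same. Over 6 libraries, 0 readers and 0 pathway genes were called under every alternative run. Over replicates 2 and 3, 2 readers were called in each fit without 1 library, 3 with the replicate block, 3 with the GC content and length trend removed and 5 with both. The share of all genes called rose as well, from 15.2% to 24.7%, 21.3% and 28.2%. Of pathway genes, where 2 were called, 7 were called with the replicate block, 7 with the trend removed, 14 with both, and 1 to 3 without 1 library (1 without METTL3-overexpressing replicate 2). The block changed no call of a reader other than YTHDF3 and, with the trend removed, YTHDF1 (0.10, edgeR adjusted p = 0.031). Removing the trend moved the balance of all calls in replicates 2 and 3 from 1469 higher and 1893 lower to 2688 and 2016.

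No value that passed the test changed direction. YTHDC2 over 6 libraries was 0.01112 with DESeq2, 0.01226 with its size factors, 0.01753 without a filter, 0.01882 with at least 10 counts, 0.01863 with counts divided by 2, 0.06205 with the trend removed, 0.06131 with the block too, and -0.020 to 0.080 without 1 library. YTHDC1 over replicates 2 and 3 was 0.006291 with DESeq2, 0.006131 with its size factors, 0.005498 without a filter, 0.00647 with at least 10 counts, 0.02917 with the trend removed, 0.02807 with the block too, and -0.037 to 0.046 without 1 library. Without 1 library, IGF2BP2 over 6 libraries ranged from -0.44 to 0.032 (without METTL3-overexpressing replicate 1), IGF2BP3 from -0.0043 to 0.059, and over replicates 2 and 3 IGF2BP3 from -0.0038 to 0.12, YTHDF2 from -0.0022 to 0.031, HNRNPA2B1 from -0.024 to 0.076 and HNRNPC from -0.080 to 0.012. The ratio of IGF2BP2 to IGF2BP3 ranged from -0.512 to 0.052. With the replicate block the mean difference of a ratio is the same by arithmetic (-0.165 for this ratio), so that alternative could not change it. The causes were not tested.

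METTL3 over 6 libraries passed in 5 of 15 alternatives, among them DESeq2 (adjusted p = 4.40e-10) and the fit without vector control replicate 1 (edgeR adjusted p = 0.00708). With 2 libraries a group, calls over replicates 2 and 3 rest on the spread between those libraries. A lone library left in a group was assumed to vary like the other group.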

Other observations

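IGF2BP2-AS1, a long noncoding RNA gene named for its position antisense to IGF2BP2, was chosen after its values were seen. It held 18, 24 and 28 counts with METTL3 and 48, 50 and 42 with the vector, so all METTL3-overexpressing libraries were below all vector controls. Its CPM ranges were separate too, as were those of 17.4% of all tested genes. Its log2 fold change was -1.08 over 6 libraries (edgeR, unadjusted p = 0.0115, adjusted p = 0.496) and -0.81 over replicates 2 and 3 (edgeR adjusted p = 0.187), so it did not pass in either comparison. At this depth the gene stayed under 1 CPM in all 6 libraries.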
